A study of Homo sapiens with 8 samples.

Results

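The comparison asks what pretreatment with the compound 1035 does to the transcripts of leukemia cells that all receive doxorubicin. SupB15 is an established human cell line from a Philadelphia chromosome-positive pre-B acute lymphoblastic leukemia, grown here in IMDM medium with serum. The doxorubicin group received 0.1 µM doxorubicin for 10 h. The pretreated group received 2 µM 1035 for 36 h and then 0.1 µM doxorubicin for 10 h. The comparison uses the 4 of 8 libraries that belong to these groups, 2 in each, chosen by their labels and by the authors' deposited table of that pair of groups. The other 4 libraries, DMSO for 46 h and 2 µM 1035 for 46 h, entered only where named. Both groups compared carry doxorubicin, and they differ in the length of treatment as well as in 1035. The labels do not say whether a solvent was added to the doxorubicin group, or whether 1035 stayed in the medium over the last 10 h. The design text calls the samples of a treatment independent, without saying what separated them. P-values therefore measure the spread between these samples, with the spread of each gene drawn toward that of other genes by the test.

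Histone deacetylases (HDACs) remove acetyl groups from histones and other proteins, mostly within large corepressor complexes that keep genes at low activity. The series title calls 1035 an HDAC inhibitor, and drugs of this kind are known to raise some transcripts and lower others. Doxorubicin, an anthracycline, holds topoisomerase II on cut DNA, so that double-strand breaks are left, and it activates p53 and NF-kB. In B-cell leukemias of this kind the BCR-ABL1 kinase drives growth.

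The 4 libraries held between 11762453 and 18147726 reads on the 16950 genes of the table. Markers of pre-B cells were present in all 4: PAX5 stood at 254 and 308 CPM (reads scaled to a common library size, normalised by TMM) with doxorubicin alone and at 212 and 224 CPM after pretreatment, and CD79A at 143 and 159 against 208 and 189 CPM. The summed level of 11 such markers was 4290 and 4550 CPM in the doxorubicin libraries and 3400 and 3350 CPM in the pretreated ones. Mitochondrially encoded genes held between 0.163% and 0.258% of reads, with both extremes in the doxorubicin group. The spread between the doxorubicin libraries was wider than in the other groups, at a chi-square per degree of freedom of 4.42 against 2.15 in the pretreated group. In these bulk samples, fewer cells of a type and less RNA per cell cannot be told apart.

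Pretreatment moved many genes, most of them by little. By the quasi-likelihood test of edgeR, 3552 of 15598 genes (22.8%) rose and 3431 (22.0%) fell at a false discovery rate (FDR) of 0.05, so that 44.8% of genes passed. A change of at least 2-fold was reached by 860 genes that rose (5.51%) and 342 that fell (2.19%), while 4259 of the 6983 genes called (61.0%) changed less than 1.5-fold. In the authors' deposited table, 2111 genes were higher and 2325 lower at an adjusted p below 0.05. Groups did not overlap for 6974 of the genes called, and for 70.4% of all genes tested. The median log2 fold change of all genes was 0.01. Changes of at least 2-fold were mostly among genes with few reads, in both directions. With genes split by read count into 10 bins, the 2 lowest held 191 and 192 of these rises and 76 and 60 of these falls. The highest bin held 8 of each. In the lowest bin, 191 of all 196 rises called and 76 of all 80 falls called were at least 2-fold, so smaller changes rarely passed there. Of all genes called in the highest bin, 598 fell and 298 rose. Among gene types, 51.4% of 11940 protein-coding genes passed, and 27.1% of 1636 long non-coding RNAs, where 264 rose and 179 fell. Of 191 small nucleolar and Cajal body RNAs, 7 rose and 15 fell.

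**Figure D1:**
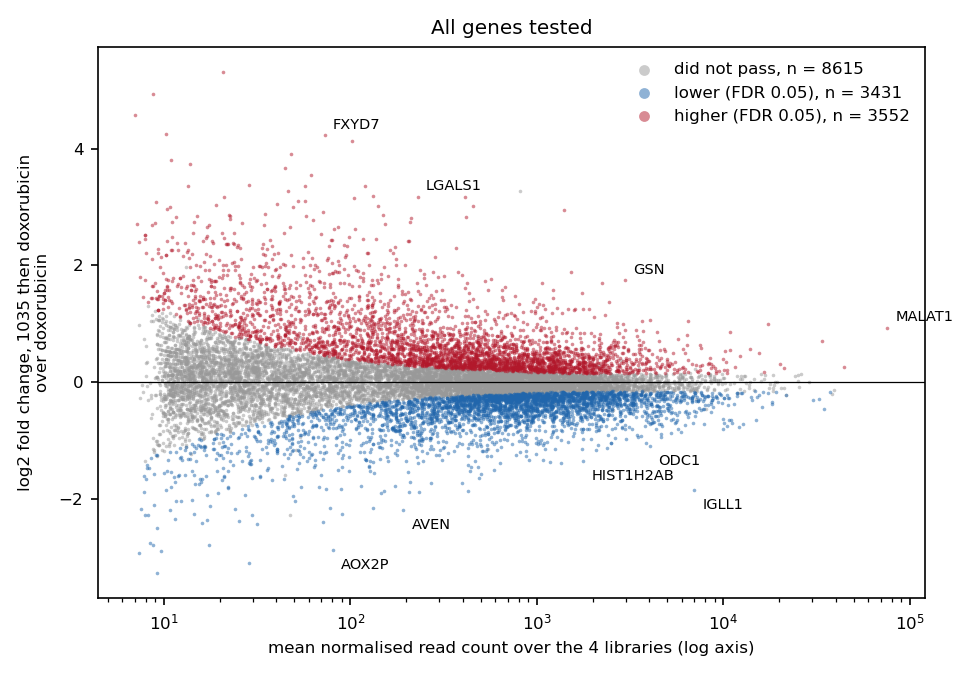
Each point is 1 of 15598 genes, with the mean normalised read count on a log axis and the log2 fold change of the pretreated over the doxorubicin group on the vertical axis. Red points (3552) rose and blue points (3431) fell at FDR 0.05, and the largest rises lie at low read counts.

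Among genes averaging 50 or more normalised reads over the 4 libraries, the 10 largest rises began at 0.409 to 6.54 CPM with doxorubicin alone. FXYD7, a regulator of the sodium pump found mainly in brain, stood at 0.616 and 0.409 CPM with doxorubicin alone and at 9.28 and 11.1 CPM after pretreatment, an 18.8-fold rise (log2 fold change 4.24 ± 0.27, SE, adjusted p = 3.67e-18 in edgeR). SUCNR1, the receptor for succinate, stood at 0.728 and 0.899 CPM against 13.6 and 14.8 CPM (4.14 ± 0.23). EIF4E3, a cap-binding protein of the translation machinery, rose from 0.504 and 0.981 to 9.82 and 6.75 CPM (3.55 ± 0.29). Groups that did not overlap were a condition of the choice of these genes. PMEL, a structural protein of pigment granules, went from 1.74 and 1.31 to 17.5 and 14.5 CPM, and F3, tissue factor, which starts blood clotting, from 1.57 and 2.37 to 16.3 and 18.5 CPM. LGALS1, the secreted lectin galectin-1, reached 33.2 and 27.6 CPM from 3.14 and 3.68 CPM, a 9.04-fold rise. EHD3, a protein of endosome traffic, reached 56.6 and 52.4 CPM from 5.66 and 6.54 CPM (3.17 ± 0.12, adjusted p = 1.3e-27 in edgeR). The list closes with HR, a corepressor with a histone demethylase domain (3.35 ± 0.28), TCF7, the T-cell factor of Wnt signalling (3.15 ± 0.21), and DACT3, an inhibitor of that pathway (3.10 ± 0.28). TCF7 reads were at 1.29 and 1.88 CPM without and at 12.4 and 15.1 CPM with pretreatment.

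Falls chosen by the same rule were smaller in fold than rises. AVEN, which blocks cell death by binding Apaf-1, dropped from 25.2 and 21.2 CPM to 5.76 and 4.42 CPM, a 4.57-fold fall (log2 fold change -2.19 ± 0.14, adjusted p = 1.17e-17 in edgeR). DMD, which encodes dystrophin, dropped from 11.4 and 10.6 to 2.69 and 1.92 CPM (-2.25 ± 0.20). SLC6A9, a glycine transporter, fell from 14.2 and 17.6 to 3.15 and 4 CPM (-2.14 ± 0.17). HERC6, an interferon-induced member of the HERC ligase family, had a log2 fold change of -2.15 ± 0.21. ARSB, a lysosomal sulfatase, moved from 14.6 and 19.4 to 4.3 and 4.67 CPM, and KCTD15, from the BTB domain family, from 24.6 and 23 to 7.29 and 5.67 CPM. LRRC14B had a log2 fold change of -1.87 ± 0.13. Of the 10 largest falls, the aldehyde oxidase pseudogenes AOX2P (-2.87 ± 0.23) and AOX3P (-2.02 ± 0.27) and the ubiquitin protease gene USP41 (-2.40 ± 0.23) have close paralogs with which they can share reads, so their values are uncertain.

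**Figure D2:**
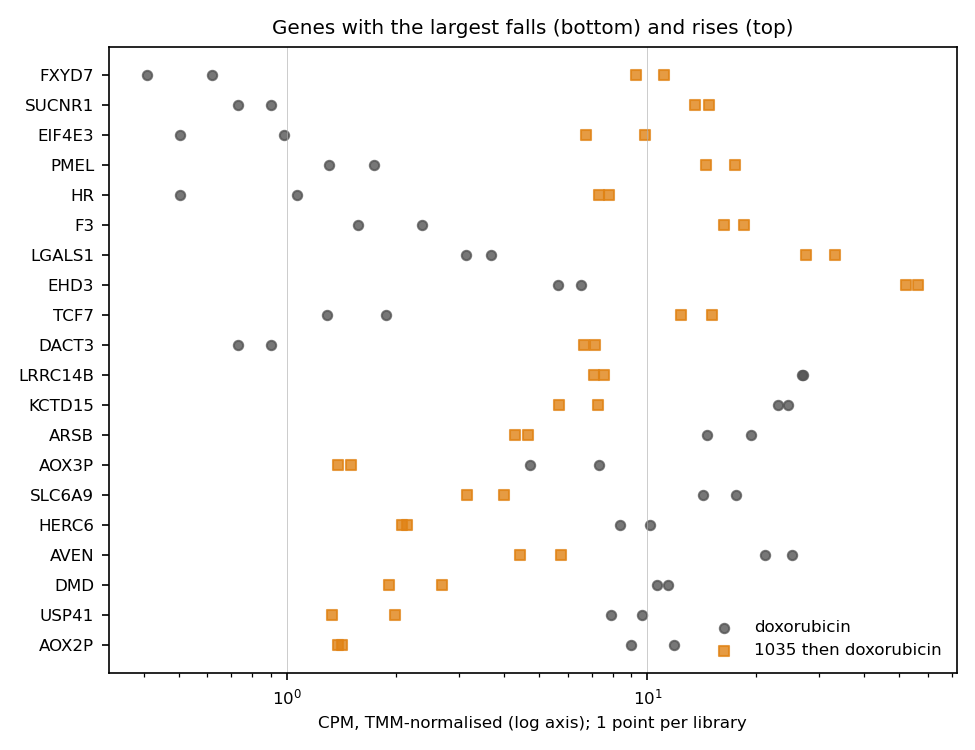
The 10 genes with the largest rises and the 10 with the largest falls are shown with 1 point per library (grey circles, doxorubicin; orange squares, 1035 then doxorubicin) in CPM on a log axis. The rule that chose the 20 genes required a mean of 50 or more normalised reads and groups that do not overlap.

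Among the genes with the most reads that changed at least 2-fold, GSN, which encodes the actin-severing protein gelsolin, rose from 109 and 90.4 to 342 and 330 CPM (log2 fold change 1.75 ± 0.07). STK17B, a kinase linked to apoptosis in lymphocytes, rose from 326 and 295 to 672 and 613 CPM. SESN3, a sestrin that restrains growth signalling, rose from 128 and 136 to 278 and 254 CPM. In each case the groups did not overlap, as for 70.4% of all genes tested. ITM2C (1.07 ± 0.07) and CLIP2 (1.05 ± 0.06) complete that set. On the other side stood IGLL1, the lambda5 chain of the pre-B cell receptor, which fell from 766 and 840 to 223 and 225 CPM (-1.84 ± 0.07, adjusted p = 1.2e-27 in edgeR). ODC1, the enzyme that makes putrescine, fell from 428 and 384 to 197 and 185 CPM (-1.09 ± 0.07), and RBM3, a cold-induced RNA-binding protein, from 385 and 377 to 181 and 191 CPM (-1.03 ± 0.07). The histone genes HIST1H2BF and HIST1H2BJ, each at -1.03 ± 0.07, were the remaining 2.

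The gene lists below stand beside the shares of all genes, 22.8% higher and 22.0% lower. These shares vary with read count and gene type. In the lowest of the 10 bins by read count 17.7% of genes passed. In the highest 57.4% passed, with 598 of 1560 genes lower and 298 higher, and 51.4% of protein-coding genes passed. No share matched to the read counts of each list was computed. Of 38 lists, that of NF-kB targets lay near the top by median and that of replication-dependent histones at the bottom.

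**Figure D3:**
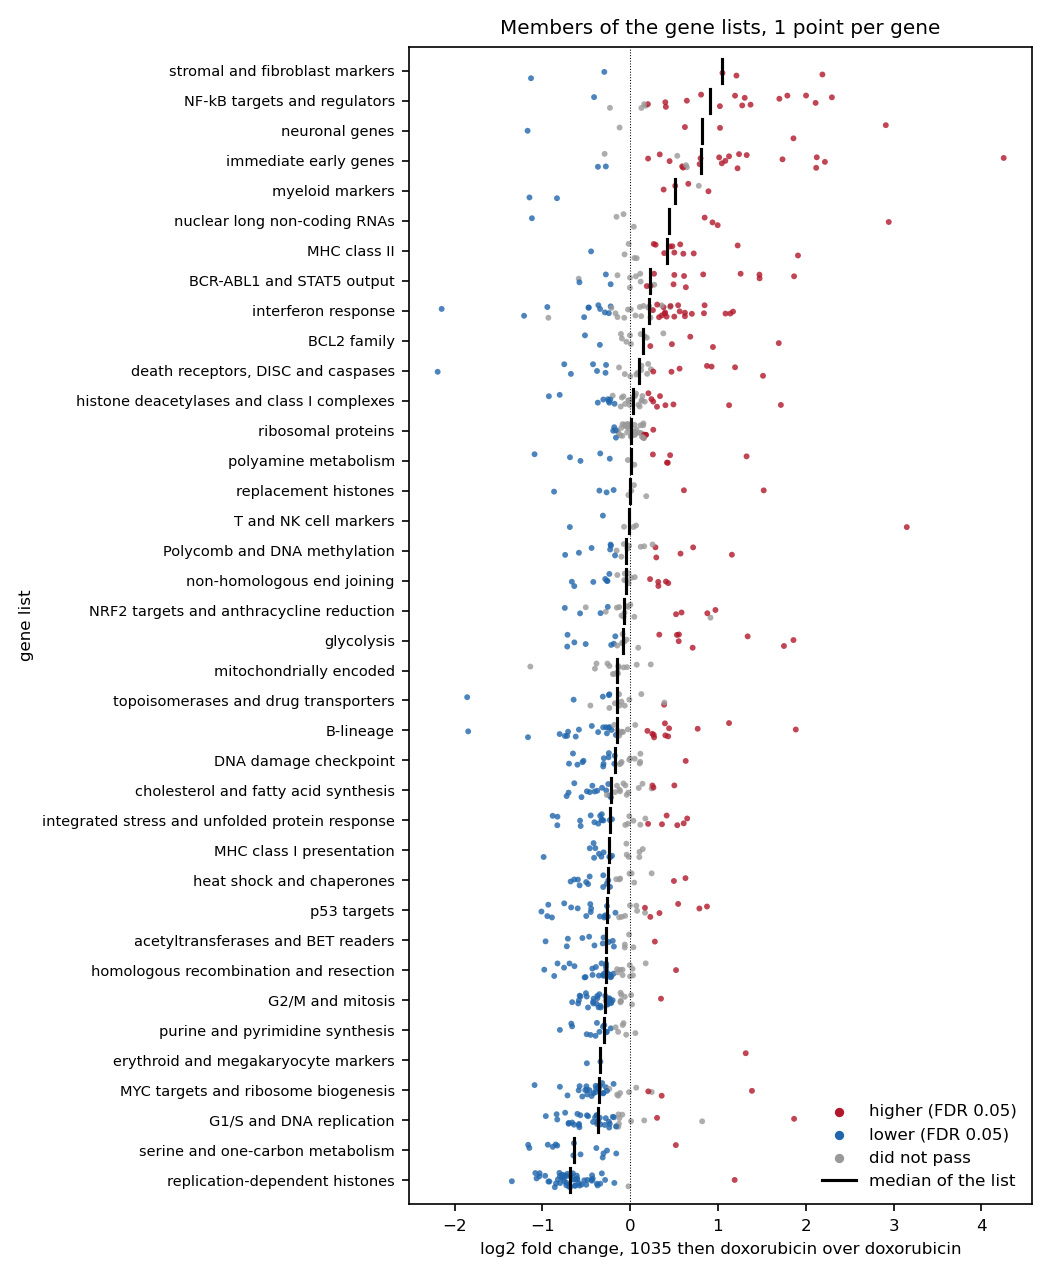
Members of the 38 gene lists are plotted by log2 fold change of the pretreated over the doxorubicin group, 1 point per gene, with red for higher, blue for lower and grey for genes that did not pass FDR 0.05; black bars mark list medians. The histone list has its median at -0.68 and the NF-kB list at 0.92.

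NF-kB is a family of dimeric transcription factors held in the cytoplasm by IkB proteins, and its targets include both inflammatory cytokines and the inhibitors that switch it off. Promoters are printed for 3 genes picked after their values were seen, because they alone passed the interaction test given below, and for LTB, which has a large rise within the NF-kB list. Each is the 250 bases before the start of transcription in RefSeq (GRCh38.p14), 5′ to 3′ on the gene's strand, with matches to a kB-type motif (GGGA, any base, then TTTCC) on either strand in capitals.
NFKBIA (chr14:35404750-35404999, minus strand): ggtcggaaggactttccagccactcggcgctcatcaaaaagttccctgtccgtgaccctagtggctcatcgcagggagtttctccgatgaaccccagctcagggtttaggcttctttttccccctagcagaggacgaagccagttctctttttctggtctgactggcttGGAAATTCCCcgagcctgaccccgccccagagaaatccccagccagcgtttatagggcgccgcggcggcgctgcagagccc
TNFAIP3 (chr6:137867009-137867258, plus strand): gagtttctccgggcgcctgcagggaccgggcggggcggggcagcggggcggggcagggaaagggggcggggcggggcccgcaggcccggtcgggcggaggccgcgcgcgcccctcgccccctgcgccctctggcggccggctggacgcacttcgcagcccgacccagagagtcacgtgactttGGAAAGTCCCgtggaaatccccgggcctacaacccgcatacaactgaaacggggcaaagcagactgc
MIR146A host, MIR3142HG in RefSeq (chr5:160468001-160468250, plus strand): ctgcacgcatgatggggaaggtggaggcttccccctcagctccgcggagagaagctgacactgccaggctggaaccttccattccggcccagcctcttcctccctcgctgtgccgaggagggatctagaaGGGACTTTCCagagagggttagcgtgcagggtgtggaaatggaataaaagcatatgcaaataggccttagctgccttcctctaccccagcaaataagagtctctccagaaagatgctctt
LTB (chr6:31582426-31582675, minus strand; 1 of 2 windows): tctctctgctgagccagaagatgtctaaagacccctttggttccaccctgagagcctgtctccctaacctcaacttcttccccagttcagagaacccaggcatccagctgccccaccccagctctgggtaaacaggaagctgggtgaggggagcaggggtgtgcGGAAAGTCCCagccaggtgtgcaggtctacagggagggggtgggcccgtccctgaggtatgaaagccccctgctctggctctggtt
Of the 17 genes of the NF-kB list with a RefSeq promoter, 8 (47.1%) held this motif, against 0.645% of 27305 genes with a promoter of the same length. The list is made of NF-kB targets and regulators, so this share says nothing about the rises here. A match is a sequence, not a measured site.

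Of 20 tested genes of the NF-kB list, 15 rose, 1 fell and 4 did not pass, with a median log2 fold change of 0.92 beside 0.01 for all genes. Among members that averaged 50 or more normalised reads the median was 0.66, and in a fit to all 8 libraries 0.73; without doxorubicin library 2, 2 were lower. TNF, the founding cytokine of its family, rose from 10.1 and 7.93 to 41.9 and 48.3 CPM (2.30 ± 0.12). CD40, a receptor that feeds into NF-kB in B cells, rose from 5.21 and 4.41 to 20.9 and 21.3 CPM (2.11 ± 0.14). LTB, which forms the lymphotoxin heterotrimer, rose from 5.71 and 4.49 to 20.3 and 21.4 CPM (2.00 ± 0.14). The 4 pretreated values of TNF and LTB were all above every doxorubicin value. Groups did not overlap in 70.4% of all genes tested. CD83 (1.30 ± 0.12), ICAM1 (1.28 ± 0.19) and the inhibitor-like BCL3 (1.70 ± 0.30) rose as well. Subunits moved apart: NFKB2 rose (0.81 ± 0.09), REL rose (0.40 ± 0.08), and NFKB1 fell from 171 and 165 to 128 and 125 CPM (-0.41 ± 0.07), while RELA (0.13 ± 0.08) and RELB (0.18 ± 0.12) did not pass.

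The rises of the feedback inhibitors were tested against what 1035 did without doxorubicin. The interaction, the pretreatment effect in doxorubicin-treated cells minus the effect of 1035 over DMSO, passed for 3 of 15882 genes (0.0189%), all higher, and for 0 lower in edgeR, with 778 genes at an unadjusted p below 0.05. DESeq2 called 2 higher and 0 lower. NFKBIA encodes IkBα, which holds NF-kB in the cytoplasm. It stood at 132 and 125 CPM with doxorubicin and 151 and 145 CPM after pretreatment (0.20 ± 0.07), whereas 1035 alone against DMSO gave -0.48 ± 0.07. The difference was 0.68 (adjusted p = 3.88e-05 in edgeR). NFKBIA's own rise lost its call in DESeq2 (adjusted p = 0.0692), without doxorubicin library 2 (0.0517) and without either pretreated library (0.2 and 0.0719), but its interaction passed in all 12 alternatives (0.64 to 0.72, largest adjusted p = 0.00868). TNFAIP3, the A20 ubiquitin-editing enzyme that ends NF-kB signalling, went from 202 and 203 to 304 and 330 CPM (0.65 ± 0.07) here and had 0.11 ± 0.06 for 1035 alone, a difference of 0.53 (adjusted p = 0.00106 in edgeR). The row named MIR146A carries the identifier ENSG00000253522, which is the long host RNA, so the mature miRNA was not measured. That host RNA went from 15.6 and 13.3 to 47 and 48.2 CPM (1.71 ± 0.10) and had 0.79 ± 0.11 for 1035 alone, a difference of 0.91 (adjusted p = 0.00643 in edgeR). TNFAIP3 missed the threshold without DMSO library 2 (adjusted p = 0.0713) and without pretreated library 2 (0.12), and MIR146A in DESeq2 (0.123) and without DMSO library 2 (0.594), 1035 library 2 (0.0736) or either pretreated library (0.207 and 0.234). Without doxorubicin library 1 the interaction called 63 genes higher and 192 lower, and without 1035 library 1 it called 3 lower. LTB, with 0.85, did not pass it (adjusted p = 0.613 in edgeR), but did without doxorubicin library 1 (0.0159). An antisense RNA, RP11-356I2.4, overlaps the start of TNFAIP3 in the GENCODE annotation and fell (-1.63 ± 0.10), so reads of both may be shared if strand was not used in counting.

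**Figure D4:**
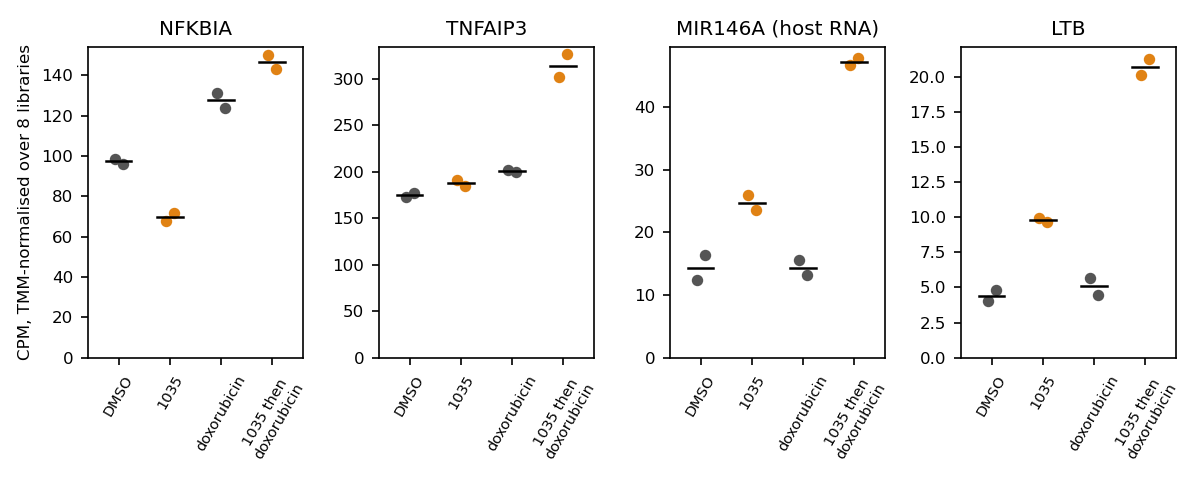
CPM in each of the 8 libraries (TMM over all 8), 2 points per group and a bar at the mean, for NFKBIA, TNFAIP3, the MIR146A host RNA and LTB. NFKBIA stood at 67.8 and 71.6 CPM with 1035 alone and at 98.5 and 96.2 CPM with DMSO, and the pretreated libraries are the highest in all 4 panels.

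The mature miRNA of that host, miR-146a-5p, lies at chr5:160485372-160485393 (plus strand, GRCh38.p14). It is printed with its seed (bases 2 to 8) in capitals for reference only.
miR-146a-5p: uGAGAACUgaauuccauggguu

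Immediate early genes, transcription factors and phosphatases that respond quickly to signals, mostly rose: 19 of 25 rose, 2 fell and 4 did not pass, with a median of 0.80, and 1 fell in DESeq2 or without pretreated library 1. IER3 rose from 3.25 and 3.1 to 14.5 and 15.3 CPM (2.22 ± 0.17), and IER2 from 45.4 and 40.2 to 98.5 and 102 CPM (1.22 ± 0.08). FOS (1.33 ± 0.16), JUN (1.24 ± 0.14) and NR4A1 (1.74 ± 0.21) also rose. KLF10, a transcription factor of the TGF-beta pathway, went from 12.5 and 11.2 to 24.5 and 27.7 CPM. NR4A3, an orphan nuclear receptor, had the largest log2 fold change of the list, 4.25 ± 0.71. Against the majority, MYC fell from 228 and 217 to 187 and 180 CPM (-0.28 ± 0.07).

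MHC class II genes, which present peptides to helper T cells, mostly rose: 11 of 16 rose, 1 fell and 4 did not pass, with a median of 0.42. HLA-DOB rose from 2.24 and 2.94 to 8.52 and 10.7 CPM (1.91 ± 0.20), and HLA-DMA from 39.8 and 42.2 to 96.8 and 94.5 CPM (1.22 ± 0.08). CIITA, the master regulator of the class II locus, rose by 0.48 ± 0.07, while its DNA-binding partner RFX5 fell from 268 and 262 to 201 and 188 CPM (-0.44 ± 0.07). MHC class I presentation went the other way, with 0 of 17 genes higher in edgeR (1 at an unadjusted p below 0.05, and 0 in DESeq2), 11 lower and 6 not passing. PSMB10, an immunoproteasome subunit, fell from 135 and 128 to 66.4 and 66.7 CPM (-0.98 ± 0.07), and HLA-C from 339 and 350 to 265 and 259 CPM (-0.40 ± 0.06). The peptide trimmer ERAP1 moved by -0.46 ± 0.07. HLA-B (-0.04 ± 0.07) and B2M, the light chain of class I molecules (0.11 ± 0.07), did not pass. With the replicate block, or among genes that averaged 50 or more normalised reads, 1 class I gene, HLA-E, was called higher (0.15 and 0.16). Its log2 fold change was 0.24 without doxorubicin library 2.

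Interferon-response genes split, with 20 of 47 higher, 11 lower and 16 not passing, and 6 lower in DESeq2 or without pretreated library 1. GBP2, an interferon-induced GTPase, rose from 30.3 and 32.4 to 76.4 and 64.5 CPM (1.17 ± 0.09), and IFITM1, an antiviral membrane protein, from 32.9 and 37.3 to 82.8 and 71.2 CPM (1.14 ± 0.09). STAT2 (0.62 ± 0.07) and IRF1 (0.70 ± 0.07) rose, while IRF7 (-1.21 ± 0.12) and IRF9 (-0.52 ± 0.11) fell. TRIM22, which is both an interferon and a p53 target, fell from 351 and 323 to 170 and 181 CPM (-0.94 ± 0.07).

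Replication-dependent histone genes encode the bulk histones made in S phase and are known for CCAAT boxes upstream of their start. Promoters of HIST1H2AB, the member with the largest fall, and HIST1H2BJ, one of those with the most reads, are printed as above with CCAAT in capitals on either strand.
HIST1H2AB, H2AC4 in RefSeq (chr6:26033619-26033868, minus strand): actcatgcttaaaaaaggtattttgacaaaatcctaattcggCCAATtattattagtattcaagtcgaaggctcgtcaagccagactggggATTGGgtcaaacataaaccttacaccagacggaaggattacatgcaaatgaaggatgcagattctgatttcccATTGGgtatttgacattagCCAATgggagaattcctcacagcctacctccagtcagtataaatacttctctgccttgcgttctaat
HIST1H2BJ, H2BC11 in RefSeq (chr6:27132796-27133045, minus strand): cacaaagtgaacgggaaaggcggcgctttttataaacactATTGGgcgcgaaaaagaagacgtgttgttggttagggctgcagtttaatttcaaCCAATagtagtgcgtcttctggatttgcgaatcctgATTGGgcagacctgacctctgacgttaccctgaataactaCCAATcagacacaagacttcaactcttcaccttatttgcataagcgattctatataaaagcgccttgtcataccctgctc
Both windows hold 4 matches. Of 47 histone genes with a promoter, 40 (85.1%) held CCAAT, against 37.0% of all promoters of this length.

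Of 56 histone genes tested, 54 fell, 1 rose and 1 did not pass, with a median of -0.68. HIST1H2AB fell from 193 and 181 to 75 and 72.3 CPM (-1.35 ± 0.07), HIST1H2BO from 211 and 215 to 103 and 98.4 CPM (-1.08 ± 0.07) and HIST1H2BJ from 251 and 245 to 125 and 118 CPM. The groups of these 3 genes did not overlap, as for 70.4% of all genes tested, and short reads cannot always tell such similar genes apart. HIST1H1A, a linker histone, went the other way, from 2.63 and 3.27 to 6.29 and 7 CPM (1.19 ± 0.21). Among 10 replacement histones, which are made outside S phase, 2 rose, 4 fell and 4 did not pass. H2AFZ fell from 522 and 471 to 257 and 288 CPM (-0.87 ± 0.07), and H1F0, a linker histone of non-dividing cells, rose from 3.25 and 2.86 to 8.82 and 8.92 CPM (1.52 ± 0.19).

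Genes of the cell cycle fell with the histones. The G1/S and DNA replication list had 32 of 43 genes lower, 2 higher and 9 not passing (median -0.36). The G2/M and mitosis list had 28 of 38 lower, 1 higher and 9 not passing (median -0.28), with 18 lower without pretreated library 2. CCNE2, a cyclin that starts S phase, fell from 115 and 114 to 67.3 and 61.1 CPM (-0.84 ± 0.07). MCM7, part of the replicative helicase, fell from 634 and 616 to 393 and 377 CPM (-0.70 ± 0.06), and UHRF1, which carries DNA methylation through replication, from 953 and 974 to 581 and 573 CPM (-0.74 ± 0.06). In mitosis, MAD2L1, a spindle checkpoint protein, fell from 134 and 128 to 85.6 and 80.9 CPM (-0.66 ± 0.07), UBE2C from 135 and 141 to 95.7 and 87.3 CPM (-0.59 ± 0.07) and HMMR from 166 and 154 to 111 and 104 CPM (-0.57 ± 0.07). The groups did not overlap in any of these 6 genes, as was so for 70.4% of all genes tested. CCND2, a D-type cyclin, went against the rest, from 2.86 and 4.74 to 13.4 and 13.3 CPM (1.87 ± 0.18), while CCND3 fell from 309 and 336 to 228 and 204 CPM (-0.58 ± 0.07). RFC2 (0.31 ± 0.07) and PTTG1, which encodes securin (0.35 ± 0.07), were the other rises.

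Of 36 genes of homologous recombination and end resection, 25 fell, 1 rose and 10 did not pass (median -0.27), and without pretreated library 1 the number lower was 16. NBN, which with MRE11A and RAD50 forms the complex that senses and trims broken ends, fell from 311 and 279 to 153 and 147 CPM, a 1.97-fold fall (-0.98 ± 0.07, adjusted p = 3.48e-17 in edgeR). Its partner MRE11A went from 84 and 88.1 to 70.4 and 77.9 CPM (-0.21 ± 0.07), a call lost in DESeq2 (adjusted p = 0.096) and without pretreated library 1 (0.318). RAD50, at 22.7 and 24.4 against 26 and 27.2 CPM, did not pass (0.18 ± 0.10). BRCA2, a central mediator of recombination, fell from 194 and 211 to 123 and 117 CPM (-0.75 ± 0.07), and BRIP1, a helicase that binds BRCA1, from 132 and 132 to 86.6 and 77.1 CPM (-0.69 ± 0.07). FANCL (-0.86 ± 0.10), RBBP8, which starts resection (-0.63 ± 0.07), and BRCA1 (-0.43 ± 0.07) also fell, and RAD51B rose from 16.4 and 16.5 to 24.1 and 23.2 CPM (0.52 ± 0.11).

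Non-homologous end joining, which ligates broken ends directly, held 5 higher, 7 lower and 8 not passing of 20, and 2 higher in DESeq2 or without pretreated library 1 and 3 without pretreated library 2. TP53BP1, which favours end joining over resection, rose from 124 and 125 to 169 and 167 CPM (0.43 ± 0.07). LIG3, a ligase of single-strand break and alternative end joining, fell from 81 and 78.4 to 48.7 and 53.9 CPM (-0.64 ± 0.08), and NHEJ1, the XLF factor, from 20.8 and 19.2 to 12.7 and 12.7 CPM (-0.66 ± 0.12). PARP1 (0.05 ± 0.07) did not pass. PRKDC, the DNA-dependent kinase (-0.15 ± 0.07), did not pass in edgeR but did in DESeq2 (adjusted p = 0.0422), with all 8 libraries (0.0352), with the replicate block (0.0334) and without doxorubicin library 1 (0.0292). Of 22 checkpoint genes, 12 fell, 1 rose and 9 did not pass, with 7 lower without pretreated library 1 and 2 higher without doxorubicin library 2. CHEK1, the kinase that holds cells with damaged DNA, fell from 166 and 168 to 115 and 116 CPM (-0.53 ± 0.07), and TIMELESS, a fork protection factor, from 149 and 159 to 95 and 101 CPM (-0.65 ± 0.07). ATM (0.05 ± 0.06), ATR (-0.12 ± 0.07) and CHEK2 (0.00 ± 0.09) did not pass, though ATR did in edgeR without doxorubicin library 2 (-0.19, adjusted p = 0.00764). RAD9A rose from 24.8 and 23 to 35.5 and 39 CPM (0.63 ± 0.10).

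**Figure D5:**
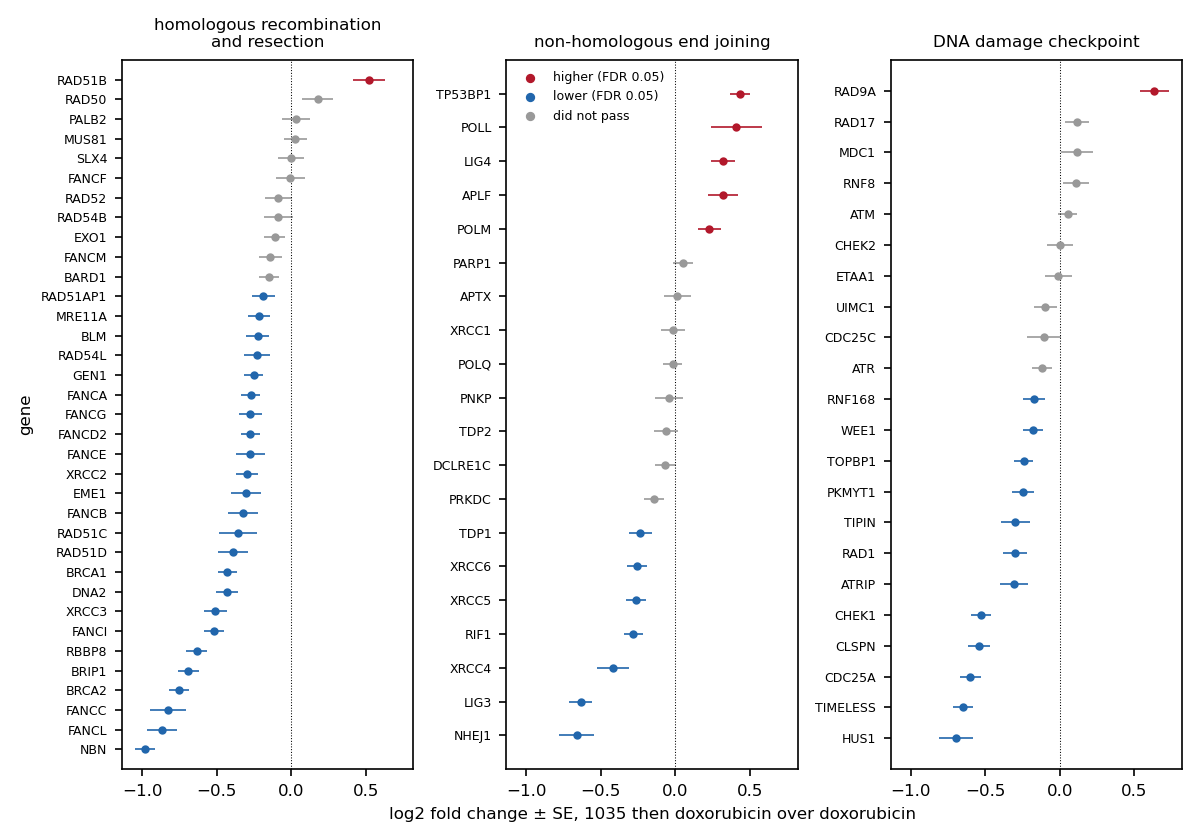
Log2 fold change with its SE for members of the homologous recombination, end joining and checkpoint lists (red higher, blue lower, grey not passing FDR 0.05). NBN at -0.98 is the lowest of the recombination genes, and TP53BP1 at 0.43 the highest of the end-joining genes.

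Targets of p53 were lower for 18 of 31 genes, higher for 6 and not passing for 7 (median -0.26). MDM2, the ubiquitin ligase that removes p53, fell from 2516 and 2364 to 2040 and 1934 CPM (-0.30 ± 0.07), and PLK2, a p53-induced kinase, from 34.1 and 27.9 to 16.1 and 14.8 CPM (-1.01 ± 0.11). CDKN1A, the p21 inhibitor of cyclin-dependent kinases, rose from 290 and 276 to 358 and 355 CPM (0.33 ± 0.06), and BTG2, an anti-proliferative factor, from 66.7 and 65.8 to 115 and 113 CPM (0.79 ± 0.07). Neither pair of groups overlapped, which held for 70.4% of all genes tested. FAS, a death receptor, stood at 6.78 and 4.82 against 3.38 and 3.67 CPM (-0.75 ± 0.21), a call lost in DESeq2 (adjusted p = 0.129) and without doxorubicin library 1 (0.193). BBC3, which encodes PUMA (-0.00 ± 0.11), did not pass.

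In the BCL2 family, which sets the threshold for mitochondrial apoptosis, 5 of 16 genes rose, 2 fell and 9 did not pass, with 3 higher in DESeq2. BMF, a BH3-only activator of apoptosis, rose from 76 and 78.6 to 245 and 254 CPM, 3.23-fold (1.69 ± 0.07, adjusted p = 7.14e-26 in edgeR). BNIP3L rose from 50.5 and 48.8 to 100 and 90.6 CPM (0.94 ± 0.08), and the pore former BAK1 by 0.69 ± 0.13. BID fell from 44.4 and 48.5 to 34.3 and 30.4 CPM (-0.51 ± 0.09) and BAX from 88.8 and 78.3 to 64.5 and 67.5 CPM (-0.34 ± 0.08). The survival genes BCL2 (-0.09 ± 0.07), MCL1 (0.01 ± 0.06) and BCL2L1 (0.12 ± 0.09) did not pass. The list of death receptors, DISC and caspases had 7 of 24 higher, 7 lower and 10 not passing. TNFRSF1A, the receptor for TNF, rose from 22.1 and 22.8 to 42.4 and 42.9 CPM (0.93 ± 0.10), and TNFRSF10B, a receptor for TRAIL, from 12.2 and 13.2 to 22.3 and 24 CPM (0.88 ± 0.12). CASP8, the initiator caspase (0.13 ± 0.09), and FADD, its adaptor (0.19 ± 0.10), did not pass.

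Genes of the B lineage split. Of 36, 11 rose, 17 fell and 8 did not pass. Parts of the surrogate light chain and the recombination machinery fell: besides IGLL1, VPREB1 went from 143 and 145 to 93.2 and 83.1 CPM (-0.71 ± 0.07) and DNTT, which adds bases at V(D)J joins, from 880 and 977 to 518 and 546 CPM (-0.80 ± 0.07). The kinases BTK (-0.72 ± 0.07) and SYK (-0.58 ± 0.07) fell, while MS4A1, which encodes CD20, rose from 95.8 and 90.7 to 208 and 200 CPM (1.13 ± 0.07) and CD22 from 163 and 152 to 260 and 278 CPM (0.77 ± 0.07). CD79A (0.40 ± 0.07) and CD79B (0.40 ± 0.07), the signalling chains of the receptor, rose. Of the fusion's own parts, BCR stood at 291 and 276 against 283 and 283 CPM (-0.00 ± 0.06) and ABL1 at 203 and 216 against 228 and 225 CPM (0.11 ± 0.06), and neither passed. In the list of BCR-ABL1 and STAT5 output, 12 of 23 rose and 3 fell: PIM1, a STAT5-induced kinase, went from 6.5 and 6.86 to 18.1 and 18.9 CPM (1.47 ± 0.14), and SPRY4, a feedback inhibitor of MAP kinase signalling, from 12.3 and 12.4 to 28.3 and 30.9 CPM (1.26 ± 0.11).

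Among histone deacetylases and their class I complexes, 9 of 36 rose, 9 fell and 18 did not pass; the rises numbered 4 in DESeq2 and 3 without pretreated library 2, and the falls 5 without pretreated library 1. HDAC1 rose from 217 and 214 to 285 and 284 CPM (0.40 ± 0.06), and HDAC2, at 182 and 177 against 176 and 168 CPM, did not pass (-0.06 ± 0.07). HDAC3 went from 79.9 and 86.4 to 95.9 and 101 CPM (0.24 ± 0.07), a call lost in DESeq2 (adjusted p = 0.0544), without doxorubicin library 1 (0.0532) and without pretreated library 2 (0.135). HDAC11 had 1.72 ± 0.34. MBD3, a subunit of the NuRD remodelling complex, fell from 143 and 159 to 79.4 and 79.7 CPM (-0.93 ± 0.07) and CHD3 from 546 and 523 to 299 and 314 CPM (-0.80 ± 0.06). Acetyltransferases and acetyl-lysine readers mostly fell, with 11 of 16 lower and 1 higher, and 0 higher in DESeq2, without doxorubicin library 1 or without pretreated library 2. KAT6B fell from 62.2 and 67.1 to 32.3 and 33.9 CPM (-0.96 ± 0.09), CREBBP from 117 and 133 to 71 and 80.2 CPM (-0.72 ± 0.08) and KAT5 from 64.4 and 58.3 to 37.7 and 37.6 CPM (-0.71 ± 0.09). Of 20 genes of Polycomb and DNA methylation, 5 rose and 7 fell, and 3 and 3 did without pretreated library 2. JARID2 rose from 117 and 124 to 199 and 197 CPM (0.72 ± 0.07).

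In serine and one-carbon metabolism, which supplies methyl groups and nucleotide carbons, 14 of 15 genes fell and 1 rose (median -0.64). PHGDH, the first enzyme of serine synthesis, fell from 213 and 208 to 92.3 and 95.9 CPM (-1.16 ± 0.07), MTHFD1L from 132 and 123 to 55.5 and 59.9 CPM (-1.15 ± 0.07) and MTHFD2 from 457 and 430 to 255 and 227 CPM (-0.88 ± 0.07). Of 36 MYC targets and ribosome biogenesis genes, 26 fell and 3 rose (median -0.36). CAD, which starts pyrimidine synthesis, fell from 283 and 272 to 159 and 159 CPM (-0.80 ± 0.07), and MXI1, an antagonist of MYC, rose from 7.28 and 8.58 to 21.2 and 19.8 CPM (1.39 ± 0.13). In purine and pyrimidine synthesis, 13 of 19 fell and 0 rose in edgeR (0 at an unadjusted p below 0.05, and 0 in DESeq2). CTPS1, which makes CTP, fell from 197 and 212 to 124 and 133 CPM (-0.67 ± 0.07). Of 29 cholesterol and fatty acid genes, 14 fell and 3 rose, and 5 rose without doxorubicin library 1. FASN, fatty acid synthase, fell from 406 and 390 to 256 and 256 CPM (-0.64 ± 0.06). In polyamine metabolism, besides ODC1, SMS fell from 68.6 and 71.7 to 45.8 and 48.9 CPM (-0.57 ± 0.08), whereas SAT1, which starts polyamine breakdown, rose from 46.1 and 44.9 to 115 and 113 CPM (1.33 ± 0.07); 5 of 12 rose and 5 fell, and 3 and 3 did without pretreated library 1. Glycolysis genes held 8 higher and 7 lower of 22, with 4 lower without either pretreated library. SLC2A3, a glucose transporter, rose from 46.6 and 38.2 to 105 and 111 CPM (1.34 ± 0.08), and LDHA fell from 387 and 442 to 250 and 256 CPM (-0.71 ± 0.07).

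Stress pathways were mixed. Of 27 genes of the integrated stress and unfolded protein response, 15 fell and 6 rose: ATF5 fell from 108 and 123 to 58.9 and 66.4 CPM (-0.88 ± 0.08), and XBP1, which is also central to plasma cells, rose from 615 and 610 to 914 and 864 CPM (0.54 ± 0.06). Of 21 heat shock and chaperone genes, 12 fell and 2 rose, and DNAJA1 fell from 392 and 368 to 238 and 237 CPM (-0.68 ± 0.06). The targets of doxorubicin itself, TOP2A at 1658 and 1581 against 1569 and 1454 CPM (-0.10 ± 0.07) and TOP2B at 3083 and 2970 against 2897 and 2653 CPM (-0.13 ± 0.07), did not pass. In the list of topoisomerases and drug transporters, 5 of 16 fell and 1 rose, with 3 lower in DESeq2 or without pretreated library 1 and 2 higher without doxorubicin library 2. SLC22A16, a carnitine carrier that can also take up doxorubicin, fell from 17.3 and 17.6 to 4.07 and 5.59 CPM (-1.86 ± 0.15), and the efflux pump ABCC4 from 72.4 and 66.1 to 44.8 and 44 CPM (-0.64 ± 0.08). Of 20 NRF2 targets and anthracycline-reducing enzymes, 4 rose and 4 fell, and without doxorubicin library 2 the number lower was 10. KEAP1, the inhibitor of NRF2, fell from 121 and 108 to 65.8 and 70.9 CPM (-0.74 ± 0.07), and AKR1A1, an aldehyde reductase, rose from 204 and 180 to 364 and 343 CPM (0.88 ± 0.07).

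Of 40 ribosomal protein genes, 5 rose and 4 fell. With the replicate block 9 rose, and 8 among genes that averaged 50 or more normalised reads. In DESeq2, or with its size factors in edgeR, 3 rose. Without pretreated library 1, 1 rose and 0 fell, and without pretreated library 2, 1 rose and 1 fell. Of 15 mitochondrially encoded genes, 0 passed in edgeR and 0 in DESeq2, with 0 at an unadjusted p below 0.05, but 13 were lower without doxorubicin library 1 and 9 higher without doxorubicin library 2. The replicate block called 5 lower and 1 higher, edgeR without robust estimation 2 lower, and the fit without pretreated library 1 called 1 lower. MT-ND6 stood at 24.6 and 87.2 CPM in the doxorubicin group. Among nuclear long non-coding RNAs, 4 of 8 rose and 1 fell, with 3 lower without doxorubicin library 2 and 2 without pretreated library 2: MIAT from 23.9 and 23.2 to 171 and 193 CPM (2.95 ± 0.08), and NEAT1, the scaffold of paraspeckles, from 877 and 832 to 1632 and 1779 CPM (1.00 ± 0.07). CRNDE fell from 32.2 and 31 to 14 and 15.1 CPM (-1.12 ± 0.11). MALAT1 took 0.341% and 0.414% of reads in the doxorubicin libraries and 0.685% and 0.803% in the pretreated ones.

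Markers of other cell types moved both ways. T and NK markers summed to 162 and 157 CPM with doxorubicin alone and 143 and 138 CPM after pretreatment (6 in the table; CD3D, CD3E and CD3G were not analysed here), with 1 of 6 higher and 2 lower, and 1 lower in DESeq2 or without pretreated library 2. Myeloid markers summed to 44.6 and 49.5 against 61.8 and 66.2 CPM, with 4 of 7 higher and 2 lower, and 2 higher and 1 lower in DESeq2; 1 was lower without pretreated library 1. Stromal markers summed to 770 and 738 against 708 and 717 CPM, most of it VIM (727 and 686 against 578 and 575 CPM), with 3 of 5 higher and 2 lower, and 1 lower without any single library. Erythroid and megakaryocyte markers summed to 396 and 392 against 291 and 293 CPM, most of it TFRC (390 and 383 against 275 and 274 CPM). Neuronal genes summed to 101 and 96.7 against 110 and 117 CPM, with 4 of 6 tested higher, 1 lower and 1 not passing. Their log2 fold changes ran from -1.17 to 2.91. NES, which encodes nestin, rose from 1.23 and 1.23 to 9.05 and 9.59 CPM (2.91 ± 0.23). The part of these cells in the results was not tested.

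The effect of pretreatment was set beside that of 1035 over DMSO without doxorubicin, which shares no library with it. Across 15580 genes the log2 fold changes of both comparisons had a correlation of 0.85, a description in which genes are not independent replicates. Of 854 genes raised at least 2-fold here, 706 were also raised at least 2-fold by 1035 alone (82.7% of those here and 68.4% of 1032 there), and of 341 lowered, 203 were (59.5% here and 63.4% of 320 there). Of 6028 genes called in both, 2 had opposite directions: NFKBIA and HSP90AB2P (-0.65 ± 0.20 here and 0.47 ± 0.19 for 1035 alone), an HSP90 pseudogene that can share reads with its parent. The fall of HSP90AB2P here lost its call in DESeq2 (adjusted p = 0.128), without doxorubicin library 2 (0.103) and without pretreated library 2 (0.0617).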

How the data were processed

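Total RNA of 4 groups of 2 libraries was sequenced after ribosomal RNA depletion with a stranded kit, in single reads of 50 bases, per the labels' protocols. Reads were aligned with Novoalign 2.08.01 to hg19 and compared with DESeq2 1.4.5, per the submitters' processing notes. How reads were counted, by which annotation and with which strand setting, was not given in the sources used here. Antisense and overlapping genes are uncertain for that reason. The authors deposited raw counts per gene, which were used for every test. The authors' deposited FPKM values, scaled by gene length and library reads, the authors' deposited log2 fold changes and their deposited adjusted p-values were not used beyond counting the last.

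Counts were filtered with filterByExpr and normalised by TMM. They were tested on the 4 libraries with the 2-sided robust quasi-likelihood F-test of edgeR 4.0.16 (R 4.3.3). Each gene had 2 residual degrees of freedom. Information shared across genes added a median of 47.1 prior degrees of freedom, so small p-values rest largely on that shared spread. Benjamini-Hochberg adjustment covered 15598 genes at FDR 0.05. CPM are TMM-normalised; folds and SEs are from the fit. The filter removed 1352 genes. The interaction and 1035 against DMSO were fitted to all 8 libraries, the former over the genes of all 4 tables. Tested on simulated data of the main comparison (15496 genes), 85 of 100 changes of 1.5-fold and 100 of 100 of 2-fold were recovered, with 9 false among 194 calls. The simulation gave all genes the same spread and changed only genes that averaged 50 or more reads. Far fewer genes changed in it than were called here, so these rates need not hold for the data. Gene lists are described by counts and medians, and a few members are not reported here by name. The members and lists were chosen with earlier results of these data known. Named genes are the 10 largest rises and 10 largest falls that averaged 50 or more normalised reads and had no overlap, the 5 with most reads past 2-fold in each direction, the 3 members of each list with the smallest p and up to 4 that go against its majority, 15 genes fixed by name, and the 5 of smallest interaction p in each direction; others are list members given as examples. Promoter windows and the miRNA came from RefSeq tables (GRCh38.p14), matched by symbol or synonym for 10514 of 15598 genes. DESeq2 1.42.0 and the other alternatives are given under the dependence on processing.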

Additional observations from a re-analysis of the deposited data

Results flagged for a closer look

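Genes are given here because the effect of 1035 differed between cells with and without doxorubicin by the interaction test. It was 0.68 higher on the log2 scale for NFKBIA, 0.53 for TNFAIP3 and 0.91 for the MIR146A host RNA. NFKBIA passed in 12 of 12 alternatives, TNFAIP3 in 10 and MIR146A in 7; their values ranged from 0.64 to 0.72, 0.47 to 0.59 and 0.70 to 1.10. The calls of TNFAIP3 and MIR146A were lost without certain libraries, and that of MIR146A also in DESeq2, as named beside their values above. Without pretreated library 1 or 2 the MIR146A difference was 0.93 and 0.89, beside 0.91 in the main fit. A fit with a library left out leaves that group without a replicate, so a lost call need not mean a smaller difference. The end of exposure to 1035, if it was removed before doxorubicin, cannot be told apart from the presence of doxorubicin.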

How the results depend on the processing

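The numbers of genes called, 3552 higher and 3431 lower, were within 1.5 times of these under DESeq2 size factors, no filter, all 8 libraries and no robust estimation. DESeq2's Wald test gave 2097 higher, and genes that averaged 50 or more normalised reads gave 441 higher and 176 lower by at least 2-fold. Leaving out 1 library gave 2578 to 3418 higher, 2528 to 3625 lower, 726 to 931 at least 2-fold higher and 305 to 423 at least 2-fold lower. The interaction called 1 to 63 genes higher and 0 to 192 lower when 1 of 8 libraries was left out.

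Deviations of libraries with the same replicate number had a correlation of -0.018 between the 2 groups. With 2 libraries a group, this value cannot decide whether the numbers pair the samples. With the replicate block, 3632 genes were higher and 3570 lower, and the interaction called 5 higher and 16 lower.

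Genes that did not pass took calls of opposite sign without doxorubicin library 1 and without doxorubicin library 2, respectively: MT-ATP6 (-0.61 and 0.34), MT-CO1 (-0.32 and 0.20), MT-CO2 (-0.34 and 0.31), MT-CYB (-0.67 and 0.30), MT-ND1 (-0.60 and 0.40), MT-ND4 (-0.59 and 0.29), MT-ND4L (-0.53 and 0.30), MT-RNR1 (-0.53 and 0.83) and TOP1 (-0.24 and 0.23). The cause was not tested. An alternative chosen after seeing the data, the interaction over genes with counts in all 8 libraries, called 3 higher and 0 lower. Of genes in the lowest of 10 bins by read count 17.7% passed, against 57.4% in the highest.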

Other observations

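In doxorubicin library 2, 16 genes had at least 10 reads and none in the other 3 libraries, 175 reads in all, and no other library held such a gene. No gene of the deposited table was without reads in both doxorubicin libraries and with reads after pretreatment. That table held no gene with fewer than 10 reads over the 4 libraries, and genes left out of it cannot be judged. Of the genes outside the named lists, RP11-356I2.4, the antisense RNA at TNFAIP3, stood at 54.1 and 55.2 CPM with doxorubicin and at 17.6 and 17.6 CPM after pretreatment (log2 fold change -1.63 ± 0.10), against -1.07 ± 0.09 for 1035 alone; its interaction did not pass (adjusted p = 0.238, edgeR), but did with the replicate block (-0.57, adjusted p = 0.0499) and without doxorubicin library 1 (-0.58, adjusted p = 0.00864). TPP1, a lysosomal peptidase, rose from 13.4 and 15.9 to 27.1 and 25.8 CPM (0.87 ± 0.11), against 1.45 ± 0.12 for 1035 alone, and its interaction did not pass (adjusted p = 0.613, edgeR), but did without doxorubicin library 1 (-0.71, adjusted p = 0.0175). MB21D1, the DNA sensor cGAS, fell from 65.2 and 59.2 to 36.9 and 43.2 CPM (-0.64 ± 0.09), against -1.14 ± 0.09 for 1035 alone, and its interaction of 0.49 did not pass (adjusted p = 0.613, edgeR), but did without doxorubicin library 1 (0.57, adjusted p = 0.00764).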
